A study of Homo sapiens with 4 samples.

Results

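Sestrins, FOXO factors and other genes that restrain PI3K and mTORC1 were followed in DG75, an established human Burkitt's lymphoma cell line. The set comprised 10 of 19088 genes with a single symbol: the sestrins SESN1, SESN2 and SESN3, the mTORC1 inhibitor DDIT4, the transcription factors FOXO1, FOXO3 and KLF2, and TXNIP, PIK3IP1 and CCNG2. They were chosen by gene name and function with the log2 differences between these libraries already known, so every value of theirs is a description and none was tested. The 10 genes were read by 11 probe sets, 2 of them for FOXO3, and all 10 genes lay above the filter on dim genes, a mean log2 intensity of 5.18. Expression was measured on 1-colour arrays in 4 libraries, 1 for each labelled time. The library labelled 0 h came from cells grown without doxycycline, and those labelled 16, 48 and 96 h from cells given doxycycline at 1 µg/ml for that many hours. All 4 came from clone AB7, a single clone that per the labels lacks native BCL6 and carries HA-tagged BCL6 under tetracycline control. No time had a second library. Cells kept without doxycycline to the later times were not analysed here, so time in culture and time with the drug cannot be told apart.

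PI3K and AKT hold FOXO factors in the cytoplasm and switch on mTORC1, the kinase complex that drives protein synthesis and growth. FOXO factors in the nucleus activate genes that slow the cell cycle and damp this same pathway. Sestrins block mTORC1 through GATOR2, the complex that reports amino acids to the lysosome, and DDIT4 blocks it through the TSC1 and TSC2 complex. In germinal centre B cells, the cells from which Burkitt's lymphoma derives, FOXO1 maintains the dark zone programme and BCL6 represses genes of activation and exit.

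Tetracycline control, as given above, does not say whether doxycycline switches the tagged BCL6 on or off. The log2 intensities of BCL6 were 11.10, 10.58, 10.25 and 10.50 in the libraries labelled 0, 16, 48 and 96 h, with the doxycycline libraries all below that without. BCL6 was thus 1.44, 1.8 and 1.52 times lower at 16, 48 and 96 h than at 0 h. How the tagged copy responded was not tested. The deposited annotation does not say whether this probe set reads the native or the tagged copy. Directions below are therefore directions between libraries as labelled. Library medians over all probe sets lay between 5.24 and 5.31, highest at 0 h. Over genes above the filter they were 7.43, 7.54, 7.5 and 7.46 at 0, 16, 48 and 96 h, lowest at 0 h. Of the B cell markers, 6 of 7 were above the filter. The exception was MS4A1, which encodes CD20, at 5.03 in the library labelled 96 h, against 4.37 in that labelled 0 h. Of the markers of other cells on the array, 3 of 6 for T cells, 0 of 6 for monocytes and macrophages, 1 of 4 for NK cells and 2 of 3 for fibroblasts were above it. CD3E was 0.67 and 0.64 higher in the libraries labelled 48 and 96 h than in that labelled 0 h, and no other marker of these 4 lists that was above the filter differed by 1.5-fold. The part of other cells in the results below was not tested. In bulk RNA, fewer cells of a type and less RNA per cell cannot be told apart.

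The promoters of SESN1, SESN3 and DDIT4, the members that were higher together, and of TXNIP, which was not, are shown because a shared FOXO or BCL6 element would be looked for there. Each window runs from 250 bases before to 50 after the start site in RefSeq, build GRCh38.p14. All 10 genes matched the RefSeq promoter table by symbol. Capitals mark a FOXO element or a BCL6-type element, found on either strand.
SESN1, chr6:109094797-109095096, minus strand: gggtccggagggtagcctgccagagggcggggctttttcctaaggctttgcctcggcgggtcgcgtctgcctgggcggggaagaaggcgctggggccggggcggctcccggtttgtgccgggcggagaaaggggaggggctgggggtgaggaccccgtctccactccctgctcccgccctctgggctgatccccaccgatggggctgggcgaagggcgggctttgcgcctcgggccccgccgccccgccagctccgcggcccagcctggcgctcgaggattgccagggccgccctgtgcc
SESN3, chr11:95232426-95232725, minus strand: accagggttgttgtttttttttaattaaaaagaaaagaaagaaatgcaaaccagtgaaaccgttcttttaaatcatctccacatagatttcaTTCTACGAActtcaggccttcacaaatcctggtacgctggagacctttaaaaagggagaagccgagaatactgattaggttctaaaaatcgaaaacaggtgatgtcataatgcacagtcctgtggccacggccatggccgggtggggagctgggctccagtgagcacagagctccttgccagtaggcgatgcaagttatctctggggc
DDIT4, chr10:72273674-72273973, plus strand: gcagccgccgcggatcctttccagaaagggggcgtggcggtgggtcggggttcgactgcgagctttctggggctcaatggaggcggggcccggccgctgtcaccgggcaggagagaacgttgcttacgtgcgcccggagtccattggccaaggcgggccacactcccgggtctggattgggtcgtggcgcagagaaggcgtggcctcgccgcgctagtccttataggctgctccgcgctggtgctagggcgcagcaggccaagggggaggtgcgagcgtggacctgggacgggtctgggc
TXNIP, chr1:145996530-145996829, minus strand: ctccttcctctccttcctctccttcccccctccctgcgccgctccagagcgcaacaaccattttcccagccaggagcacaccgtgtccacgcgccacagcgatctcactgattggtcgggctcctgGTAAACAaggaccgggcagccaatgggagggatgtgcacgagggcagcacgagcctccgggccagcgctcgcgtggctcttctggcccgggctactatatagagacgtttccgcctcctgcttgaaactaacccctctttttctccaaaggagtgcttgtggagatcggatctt

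The FOXO element GTAAACA was present in 1 of the 10 promoter windows, that of TXNIP, and in 3.41% of the 27305 windows of this length. The BCL6-type element TTCNNNGAA, whose letters STAT factors also bind, was present in 1 window, that of SESN3, against 7.88% of all windows. The E-box CACGTG was found in the window of CCNG2 alone, against 7.43% of all windows. The ATF4 element TGATGCAA was found in 0 of the 10, against 0.923%. SESN1 and DDIT4 held none of these letters in the window shown, and none of the motifs overlapped another. GC content was 75.0% in the SESN1 window, 69.7% in that of DDIT4 and 45.0% in that of SESN3, and the median of all windows was 58.3%.

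SESN1, SESN3 and DDIT4 were at least 1.5-fold higher in each of the 3 doxycycline libraries than in the library labelled 0 h. A 1.5-fold difference is 0.585 on the log2 scale, and 2.31% of the 11453 tested genes were this much higher at all 3 times. Since the members were chosen with these differences known, nothing is read from the share of members. Counted time by time, 4 members were 1.5-fold higher at 16 h (background 4.34%), 5 at 48 h (4.39%) and 6 at 96 h (5.36%). FOXO3 enters these counts and the median below through its brighter probe set. With the mean of its 2 probe sets the counts were 4, 4 and 5. SESN2 was 1.5-fold lower at 48 h and at 96 h (backgrounds 1.55% and 3.52%), and 0 members were this much lower at 16 h (0.69%) or at all 3 times (0.192%). The median difference of the 10 genes was 0.46 at 16 h, 0.61 at 48 h and 0.85 at 96 h, while all tested genes had medians of 0.02, -0.01 and -0.03. Each median of the 10 genes is lower when FOXO3 is taken as the mean of its 2 probe sets (0.24, 0.52 and 0.55) or from its dimmer one. Without the library labelled 16 h, 5 members were higher at all remaining times in place of 3. The additions were PIK3IP1 and, by its brighter probe set alone, FOXO3. The 3 comparisons share the library labelled 0 h.

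**Figure D1:**
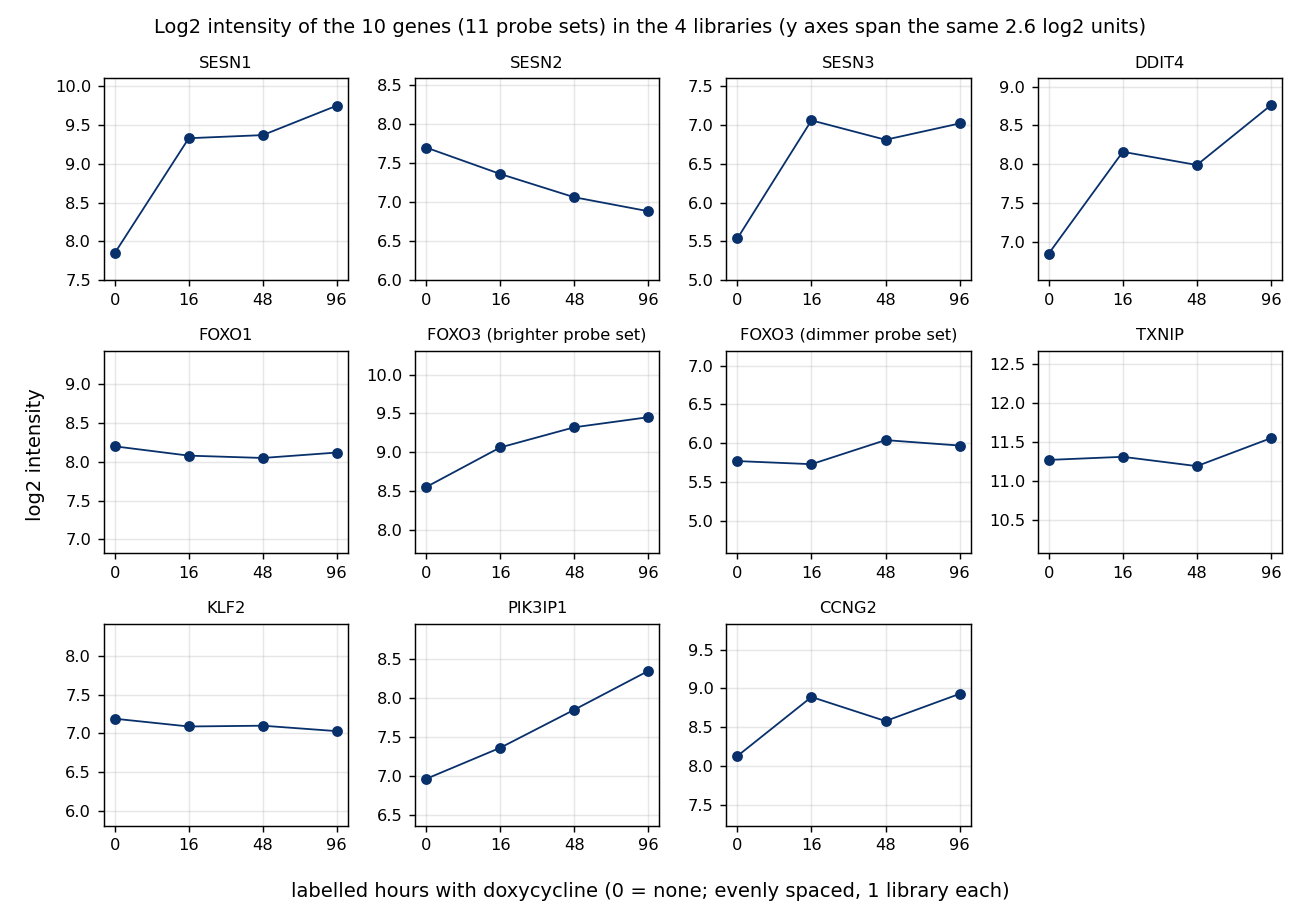
Log2 intensity (y) of the 11 probe sets in the libraries labelled 0, 16, 48 and 96 h (x, evenly spaced), 1 point per library, with y axes of equal span. SESN1, SESN3 and DDIT4 stand lowest at 0 h and stay high from 16 h on, PIK3IP1 is higher at each later time, SESN2 is lower at each later time, and FOXO1 and KLF2 are nearly level.

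The sestrins did not move as a family. SESN1, a stress-induced mTORC1 inhibitor that p53 and FOXO3 activate in other cells, had log2 intensities of 7.85, 9.33, 9.37 and 9.75 in the libraries labelled 0, 16, 48 and 96 h. This put SESN1 2.78-fold higher at 16 h, 2.86-fold at 48 h and 3.74-fold at 96 h, a mean log2 difference of 1.63 ± 0.24 (SD over the 3 times). Most of that difference was present by 16 h, and the libraries labelled 16 and 48 h differed by 0.04. Among all tested genes the SESN1 difference was the 12th highest at 16 and at 48 h and the 19th at 96 h.

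SESN3, the sestrin gene best known as a FOXO target, had log2 intensities of 5.54, 7.06, 6.81 and 7.02 at 0, 16, 48 and 96 h. The level at 0 h was close to the filter on dim genes, 5.18, so its folds of 2.87, 2.41 and 2.78 depend on how dim signals were treated. In the other deposited table, which has a higher floor, the log2 differences were 1.25, 1.04 and 1.22 in place of 1.52, 1.27 and 1.48. The 3 doxycycline libraries lay within 0.25 of each other and did not approach the library labelled 0 h.

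SESN2, a leucine sensor that ATF4 induces under amino acid and endoplasmic reticulum stress, went the other way. Its log2 intensity was 7.70, 7.36, 7.06 and 6.88 at 0, 16, 48 and 96 h, each library below the one before. SESN2 was 1.26, 1.55 and 1.76 times lower at the 3 times than at 0 h. The log2 difference of SESN1 exceeded that of SESN2 by 1.81 at 16 h, 2.15 at 48 h and 2.72 at 96 h, and that of SESN3 exceeded it by 1.85, 1.91 and 2.30. Adding a constant to a whole library leaves these gaps as they are.

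DDIT4, also called REDD1, is induced by hypoxia, glucocorticoids, DNA damage and ATF4 and releases TSC2 to shut off mTORC1. DDIT4 intensities on the log2 scale were 6.85, 8.16, 7.99 and 8.76 in the order 0, 16, 48 and 96 h. That is 2.48-fold, 2.20-fold and 3.76-fold above the library labelled 0 h (mean log2 difference 1.45 ± 0.40, SD over the 3 times). Between the libraries labelled 96 and 16 h DDIT4 was 1.51-fold higher, barely past the threshold, while SESN3 differed by -0.04. In the other deposited table DDIT4 had 8.24 at 16 h and 8.81 at 96 h, a gap under 1.5-fold. At 96 h against 16 h, a comparison free of the library labelled 0 h, 1.27% of all tested genes were 1.5-fold higher and 1.88% 1.5-fold lower. DDIT4 and PIK3IP1 were the 2 members among the higher ones, and 0 members were among the lower.

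PIK3IP1, a membrane protein that binds the catalytic subunit of PI3K and inhibits it in lymphocytes, was higher at each later time. Log2 intensities were 6.96, 7.36, 7.85 and 8.35 at 0, 16, 48 and 96 h. The difference from 0 h was 0.41 at 16 h, under the threshold, and 0.89 and 1.39 at 48 and 96 h. The steps from 16 to 48 h and from 48 to 96 h were 0.49 and 0.50, so PIK3IP1 was 1.98-fold higher at 96 h than at 16 h. Among the 10 genes this was the widest range within the doxycycline libraries, 0.99, against 0.77 for DDIT4 and 0.43 for SESN1.

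FOXO1 hardly varied. Its log2 intensity was 8.20 at 0 h and 8.08, 8.05 and 8.12 in the libraries labelled 16, 48 and 96 h. The differences of -0.12, -0.15 and -0.09 lay inside the range that held the central 95% of tested genes, which ran from -0.46 to 0.72 at 16 h, from -0.52 to 0.72 at 48 h and from -0.64 to 0.82 at 96 h. Messenger RNA level says nothing of where FOXO1 protein lies in the cell, the step that AKT controls.

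FOXO3 was read by 2 probe sets that disagreed. The brighter gave 8.55, 9.06, 9.32 and 9.45 at 0, 16, 48 and 96 h, with differences of 0.51, 0.77 and 0.90. The dimmer gave 5.77, 5.73, 6.04 and 5.97, with differences of -0.04, 0.28 and 0.21, none of them 1.5-fold. Both carry the same gene symbol and RefSeq transcripts in the deposited table but different GenBank accessions. The RefSeq gene table also lists FOXO3B, a near-identical copy of FOXO3, and which copy each probe set reads is not stated in the sources used here. Probe set numbers of the other members follow the chromosomes, sorted as text. The dimmer lies between CCNG2 on chromosome 4 and SESN1 on chromosome 6, and FOXO3 is on chromosome 6. The brighter lies between FOXO1 on chromosome 13 and KLF2 on chromosome 19, so it may not read the FOXO3 locus. The 1.71-fold and 1.86-fold higher signals at 48 and 96 h are therefore uncertain as a change of FOXO3, and the mean of both probe sets gave 0.24, 0.52 and 0.55, all under 1.5-fold.

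CCNG2, an unconventional cyclin that FOXO factors activate and that slows the cell cycle, had log2 intensities of 8.13, 8.89, 8.58 and 8.93 at 0, 16, 48 and 96 h. It was 1.69-fold higher at 16 h and 1.74-fold higher at 96 h, and 1.36-fold higher at 48 h, which is under the threshold. The library labelled 48 h was thus lower than its neighbours in time for CCNG2, SESN3 and DDIT4 alike, with log2 differences of -0.31, -0.25 and -0.17 from the library labelled 16 h.

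TXNIP and KLF2, textbook FOXO-responsive genes of resting lymphocytes, were close to level. TXNIP, which binds thioredoxin and limits glucose uptake, had log2 intensities of 11.27, 11.31, 11.19 and 11.55 at 0, 16, 48 and 96 h. KLF2, a transcription factor of quiescent lymphocytes, had 7.19, 7.09, 7.10 and 7.03. The differences from 0 h were 0.05, -0.08 and 0.29 for TXNIP and -0.10, -0.10 and -0.17 for KLF2, all inside the central 95% of tested genes. TXNIP held the only FOXO element among the promoter windows, shown above.

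**Figure D2:**
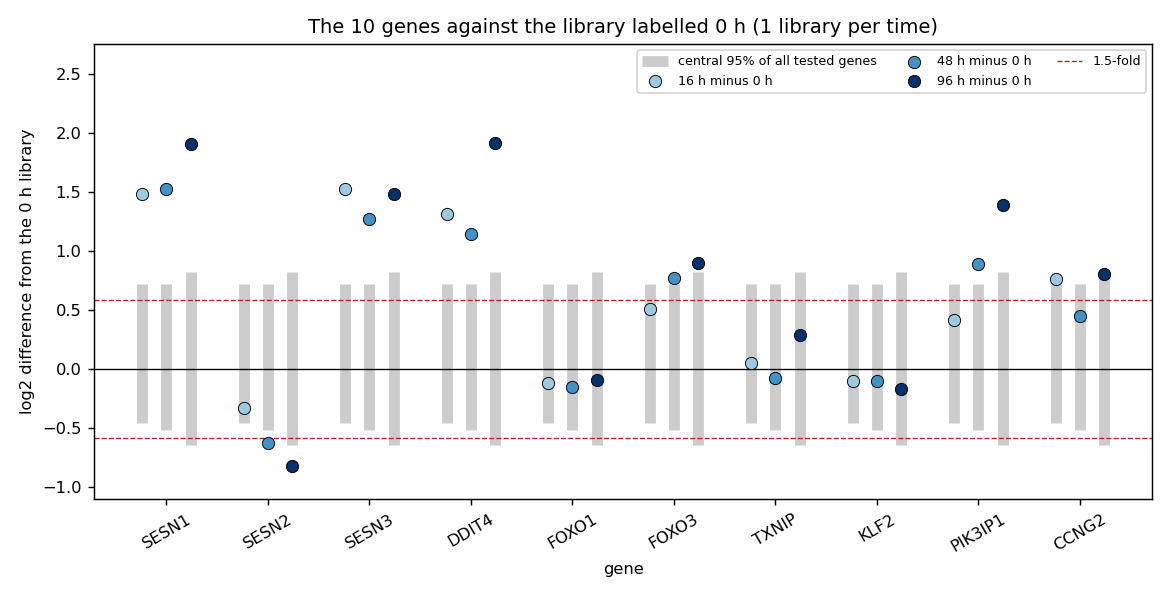
Log2 difference from the library labelled 0 h (y) for each gene (x), 1 point each for 16, 48 and 96 h. Grey bars span the central 95% of the 11453 tested genes at that time, and dashed lines mark 1.5-fold. SESN1, SESN3 and DDIT4 lie above the bars at all 3 times, SESN2 lies below them at 48 and 96 h, and FOXO1, TXNIP and KLF2 lie inside. FOXO3 is drawn from its brighter probe set.

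The genes most like each of the 3 sustained members were found by the Euclidean distance between their 3 log2 differences from 0 h, over the tested genes. PDCD4, an inhibitor of translation initiation that mTORC1 signalling destroys, was nearest to SESN1 at a distance of 0.10, with differences of 1.39, 1.57 and 1.89 at 16, 48 and 96 h. GAB1 and PARP9 followed at 0.24 and 0.25. HIVEP2, ANKRD44 and ARHGAP15 were nearest to SESN3, at 0.11, 0.12 and 0.14. GAB1, SP110 and UTRN were nearest to DDIT4, at 0.22, 0.30 and 0.33. SESN1, SESN3 and DDIT4 lay 0.41 to 0.50 from one another. The genes above were picked as the nearest among the tested genes, so their smaller distances follow from the search. All these patterns share the library labelled 0 h.

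The pathways around these genes were tested with limma, setting the 3 doxycycline libraries against the library labelled 0 h, with p-values adjusted over 11453 genes by Benjamini-Hochberg and calls made under 0.05. This test takes the spread between the 3 times as its error and assumes that the library labelled 0 h varies alike. It called 1.23% of genes higher and 0.0786% lower. Before adjustment 10.2% of all tested genes were higher and 5.11% lower at a p under 0.05, and each unadjusted count below is to be read against these shares. The gene lists were drawn from textbook roles, with earlier results of these data known, so list counts and medians are descriptions. The members are not in them, and BCL6 is among the other FOXO targets. At the shares called over all genes, a list of this length would most often hold no call. Nothing is therefore read from a list without one.

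Among other FOXO targets, 2 of 16 tested genes rose and 0 fell. Before adjustment 6 were higher and 2 lower (10.2% and 5.11% of all tested genes). CDKN1B, the cyclin-dependent kinase inhibitor p27, had log2 intensities of 7.16, 8.38, 8.03 and 8.30 at 0, 16, 48 and 96 h, and it rose 2.10-fold (1.07 ± 0.17 SE, limma adjusted p = 0.0315). BCL2L11, the proapoptotic BH3-only protein BIM, had 7.62, 8.54, 8.39 and 8.58 and rose 1.84-fold (0.88 ± 0.15 SE, limma adjusted p = 0.0335). Both were lowest at 0 h and lowest among the doxycycline libraries at 48 h. CCR7, a homing receptor, was 1.74 higher at 96 h but 0.04 higher at 16 h and did not pass (limma adjusted p = 0.437). The list had median differences of 0.20, 0.26 and 0.24 at 16, 48 and 96 h, and 7 of its genes, IL7R, RAG1, RAG2, S1PR1, INSR, IRS2 and TNFSF10, were under the filter on dim genes. Of the FOXO regulators, 0 of 8 tested genes passed limma, with 1 higher and 0 lower before adjustment (10.2% and 5.11% of all tested genes), and STK4, the kinase MST1, was 0.46, 0.42 and 0.38 higher.

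Among PI3K subunits, 1 of 13 tested genes rose and 0 fell. Before adjustment 6 were higher and 0 lower (10.2% and 5.11% of all tested genes). PIK3C2B, a class II PI3K, had log2 intensities of 5.37, 6.28, 6.15 and 6.44 and rose 1.89-fold (0.92 ± 0.16 SE, limma adjusted p = 0.0385). The regulatory subunit PIK3R3 was 0.45, 0.92 and 1.12 higher and the leukocyte catalytic subunit PIK3CD 0.82, 0.41 and 0.78 higher, with limma adjusted p of 0.147 and 0.138. The list medians were 0.45, 0.34 and 0.35 at the 3 times, above those of all tested genes. Of the phosphatases that oppose PI3K, 0 of 8 passed limma, with 2 higher and 0 lower before adjustment (10.2% and 5.11% of all tested genes). INPP4A was 0.67, 0.74 and 0.80 higher (limma adjusted p = 0.0508) and INPP5D, the phosphatase SHIP1 of B cells, was 0.36, 0.86 and 0.96 higher (limma adjusted p = 0.179).

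No gene of the mTORC1 machinery was called, an ordinary outcome for lists this short at the shares that limma called over all tested genes. Of 15 tested genes of the mTORC1 core and TSC list, 0 passed limma, with 2 higher and 0 lower before adjustment (10.2% and 5.11% of all tested genes), and the list medians were 0.05, 0.03 and 0.04 at the 3 times. DEPTOR, a subunit that inhibits mTOR, was 0.81, 0.75 and 0.40 higher at 16, 48 and 96 h without passing (limma adjusted p = 0.144). Of 21 tested amino acid sensing genes, 0 passed, with 2 higher and 0 lower unadjusted, near or below the shares of all tested genes, and medians were 0.06, 0.05 and -0.06. MIOS and WDR59, subunits of the GATOR2 complex that sestrins bind, were 0.77, 0.52 and 0.69 and 0.39, 0.69 and 0.58 higher, with limma adjusted p of 0.0896 and 0.148. Another GATOR2 subunit, SEH1L, differed by -0.23, -0.34 and -0.60. AMPK subunits and their activators had 0 of 8 passing limma, with 0 higher and 1 lower unadjusted (10.2% and 5.11% of all tested genes), and PRKAB1 differed by -0.43, -0.50 and -0.51.

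Genes that share an inducer with SESN2 and DDIT4 were examined as the ATF4 and stress list. Differences that grow with time widen the spread that limma takes as error, so genes with large differences at 96 h can fail to pass. Of 13 tested genes, 0 passed limma, with 0 higher and 2 lower before adjustment (10.2% and 5.11% of all tested genes). Its medians were 0.00 at 16 h, -0.25 at 48 h and -0.81 at 96 h, and 0, 4 and 8 genes were 1.5-fold lower at these times, where 0.69%, 1.55% and 3.52% of all tested genes were. VLDLR, a lipoprotein receptor, was the exception at 16 h, 0.65 higher. SLC7A11, the cystine transporter, differed by -0.21, -0.88 and -1.76, CTH, which makes cysteine, by -0.07, -0.89 and -1.55, and CHAC1, which degrades glutathione, by 0.11, -0.65 and -1.52. SESN2 lay with these genes at 48 and 96 h, at -0.63 and -0.82, and DDIT4 lay far above them, at 1.14 and 1.91.

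**Figure D3:**
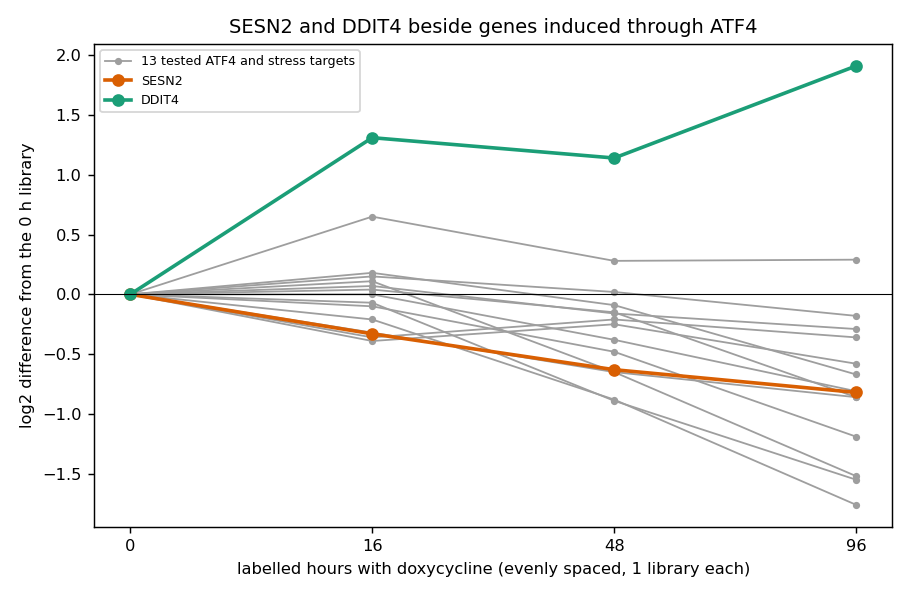
Log2 difference from the library labelled 0 h (y) at each labelled time (x, evenly spaced) for the 13 tested ATF4 and stress targets (grey), SESN2 (orange) and DDIT4 (green), 1 library per time. SESN2 runs within the grey lines to -0.82 at 96 h and DDIT4 stands above all of them at 1.91.

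Genes induced by p53, the other known inducer of SESN1 and SESN2, had 2 of 17 tested members that rose and 0 that fell. TP53INP1, an autophagy and stress protein, had a log2 intensity of 6.61 at 0 h, was 1.20, 1.39 and 1.63 higher at 16, 48 and 96 h, and rose 2.65-fold (1.41 ± 0.18 SE, limma adjusted p = 0.0173). The death receptor FAS rose 1.79-fold (0.84 ± 0.15 SE, limma adjusted p = 0.0437). Before adjustment 5 of the 17 were higher and 1 lower (10.2% and 5.11% of all tested genes). Of the genes that did not pass, BTG2, an antiproliferative gene, was 0.52, 0.68 and 0.60 higher (limma adjusted p = 0.095), ZMAT3 was 0.24, 0.64 and 0.62 higher and XPC 0.39, 0.37 and 0.52 higher. MDM2 differed by -0.31, -0.23 and -0.30, CDKN1A by 0.20, -0.15 and -0.41 and BAX by -0.12, -0.16 and -0.17. The list medians were 0.14, 0.12 and 0.03.

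Relatives of TXNIP and KLF2 gave 1 call. Among the arrestin-like relatives and partners of TXNIP, 0 of 8 tested genes passed limma, with 2 higher and 1 lower before adjustment (10.2% and 5.11% of all tested genes), and medians were 0.02, 0.08 and 0.10. ARRDC1 was 0.65, 0.34 and 0.84 higher, ARRDC3 was 0.54, 0.33 and 0.71 higher and TXNRD1, thioredoxin reductase, differed by -0.27, -0.51 and -0.74. Among other KLF factors 1 of 11 rose, KLF12, at 1.78-fold (0.83 ± 0.14 SE, limma adjusted p = 0.0367), and 0 fell. Before adjustment 2 of the 11 were higher and 0 lower (10.2% and 5.11% of all tested genes). KLF12 had log2 intensities of 6.81, 7.68, 7.70 and 7.56.

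Across these lists 6 genes passed limma: CDKN1B, BCL2L11, PIK3C2B, TP53INP1, FAS and KLF12. TP53INP1 alone kept its call under every alternative run (limma adjusted p from 0.000156 to 0.0469). Quantile scaling, median centring and testing without the filter each left that 1 call of the 6. Over all alternatives the highest limma adjusted p of the other 5 genes ran from 0.0634 for CDKN1B to 0.105 for KLF12.

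**Figure D4:**
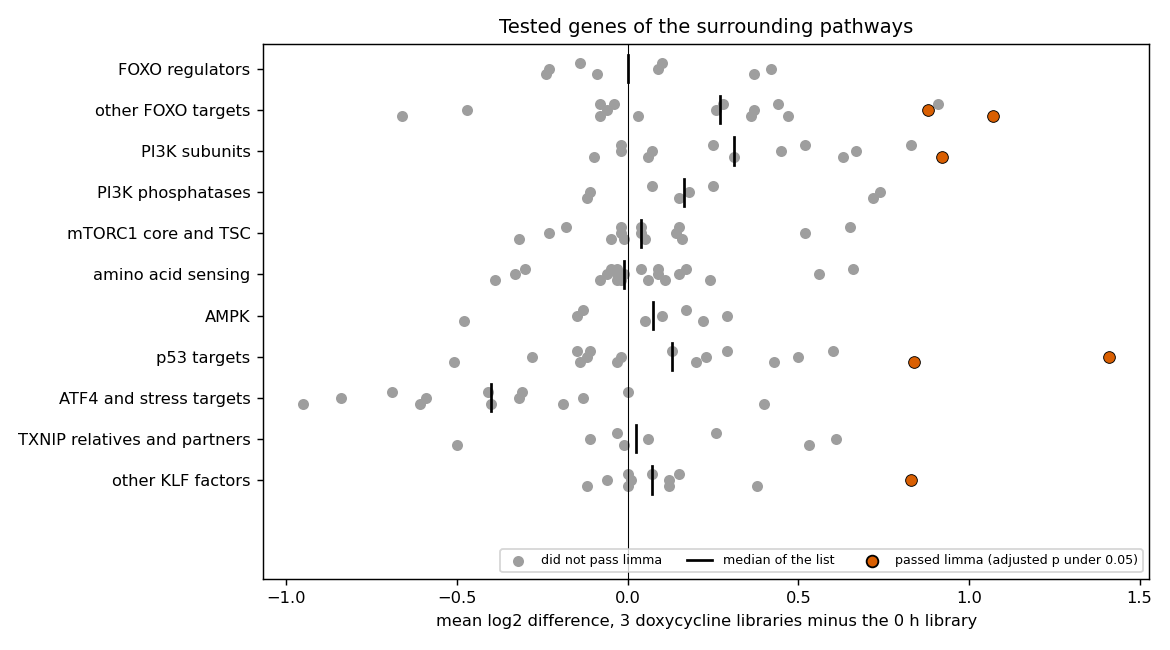
Mean log2 difference of the 3 doxycycline libraries from the library labelled 0 h (x) for each tested gene of the 11 pathway lists (rows), with points offset vertically for legibility. Orange points passed limma, grey points did not, and black bars are list medians. The 6 orange points lie at 0.83 to 1.41, and the ATF4 and stress list has the lowest median, -0.40.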

How the data were processed

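Per the labels, arrays had 1 colour. The authors' deposited values are log2 intensities, as their size shows (2.35 to 14.21 in one table, 4.46 to 14.11 in another of the same 4 libraries). How either was scaled, background-corrected or summarised is not stated in the sources used here. The table of 33297 probe sets gave every value unless stated. The other table supplied symbols, which were updated through RefSeq (GRCh38.p14), 17017 by accession, 841 by current and 836 by older symbol, with 1243 kept as deposited. Of its 28869 probe sets, 19937 had 1 symbol, 2191 several and 6741 none. For 621 of 19088 genes with several probe sets, the one with the highest mean was used. Genes at or above the 40th percentile of mean log2 intensity, 5.18, were tested, which left 11453.

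Differences between single libraries were counted past 1.5-fold without a test. Limma 3.58.1 (lmFit, eBayes) in R 4.3.3 set the 3 doxycycline libraries against the 0 h library, with 2 residual degrees of freedom, two-sided. The fit was tested on simulated data first, with each gene's fitted spread. It called 34% of 50 genes changed by 0.585 and 100% of 50 changed by 1.0. A gene that differed by less than 1.0 could thus fail to pass though changed. Nothing says that the libraries came from separate cultures, so p-values measure only the spread between them. Precision is limited by the number of arrays. Named genes are the 10 members, BCL6, markers, list genes past limma, up to 3 per list with the largest mean difference, and the 3 genes nearest in pattern to members 1.5-fold different at all times. MDM2, CDKN1A, BAX, ZMAT3, XPC, VLDLR, INSR and other list genes outside that rule were named after their values were seen. Members and lists were chosen with earlier results of these data known. Alternatives were quantile, cyclic loess and median scaling, the other table, the mean of probe sets, a lowess correction for genomic span, no filter, folds of 1.3 and 2, and leaving out a library.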

Additional observations from a re-analysis of the deposited data

How the results depend on the processing

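SESN1, SESN3 and DDIT4 were 1.5-fold higher at all 3 times under each of the 3 scalings, in the other table, with the mean of probe sets and after the correction for genomic span. None of the members' differences past 1.5-fold changed sign under these 6 alternatives. Of 180 recomputed differences, 160 moved by less than the gene's SD over the 3 times and 20 by more, mostly small differences of FOXO1 and KLF2, those of FOXO3 with both probe sets averaged, and those of SESN3 in the other table. Median centring moved the median difference of all tested genes to -0.08, -0.08 and -0.05 at 16, 48 and 96 h. At a threshold of 2-fold 3 members were higher at 48 h in place of 5, and at 1.3-fold 6 were higher at all 3 times in place of 3. With a library left out that count was 3 to 5. DDIT4, 1.51-fold higher at 96 h than at 16 h, was under 1.5-fold in the other table and after the correction for genomic span. After that correction the log2 differences of DDIT4 from 0 h were 1.4 at 16 h and 1.88 at 96 h. Before it, differences from 0 h over the tested genes of known span were larger for longer genes. Their Spearman correlations with genomic span were 0.28, 0.21 and 0.11 at 16, 48 and 96 h. All share the single library labelled 0 h, and the cause was not tested. The number of limma calls over all genes, 150, was 54 without the filter, 56 with quantile scaling, 86 with loess scaling, 49 with median centring and 89 after the correction for genomic span, and 226 to 334 with a library left out, where 1 residual degree of freedom remains. Testing more genes without the filter and fewer libraries when leaving one out changes the test itself, and for the scalings the cause was not tested. No paired analysis was possible because each time has 1 library. Dim signals limit SESN3 at 0 h and the dimmer FOXO3 probe set.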

Other observations

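The nearest relatives of 3 members were read on the same arrays and were chosen after the members' values were seen. FOXO4, another FOXO factor of lymphocytes, had log2 intensities of 6.15, 6.25, 6.24 and 6.25 in the libraries labelled 0, 16, 48 and 96 h. CCNG1, the cyclin G paralog of CCNG2 that p53 induces, had 9.86, 9.87, 10.31 and 10.26, so its difference came after 16 h, while that of CCNG2 was 0.76 at 16 h. DDIT4L, the paralog of DDIT4, was under the filter on dim genes at 4.43, 4.25, 4.24 and 4.42.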
